A study of Mus musculus with 20 samples.

Results

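The enzymes that hydroxylate and crosslink collagen were followed by their RNA in mouse lung cells that had been moved between flat and gel culture. The 10 genes were taken by symbol from the deposited count table: the lysyl oxidases Lox, Loxl1, Loxl2, Loxl3 and Loxl4, the lysyl hydroxylases Plod1, Plod2 and Plod3, and the prolyl 4-hydroxylase alpha chains P4ha1 and P4ha2. All 10 carried values, among 18012 genes with values in the table, and all 10 passed the filter on low counts. Lungs of male C57BL/6 mice, labelled normal and given no chemical treatment, were digested with collagenase, and the unsorted cells were grown for 4 days in 2D or in a 3D collagen hydrogel. They were then grown for 2 days in the same or the opposite setting, which gave 4 groups with the first setting named before the second: 2D-2D and 2D-3D, and also 3D-2D and 3D-3D. The group Sort_Fib held uncultured lung cells depleted with beads against CD45, EpCAM and CD31. Each group had 4 libraries, and nothing in the labels says that these came from separate animals, so that p-values measure the spread between libraries, which may be technical.

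Collagen chains are modified while they are made. In the endoplasmic reticulum, prolyl 4-hydroxylases add the hydroxyproline that keeps the triple helix stable at body temperature, and lysyl hydroxylases make the hydroxylysine that carries sugars and shapes later crosslinks; both need iron, 2-oxoglutarate and ascorbate. Outside the cell, the copper-dependent lysyl oxidases turn lysine and hydroxylysine into reactive aldehydes, which crosslink collagen and elastin and give the lung its stiffness and recoil.

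Depth ran from 19.67 to 20.33 M counts in the cultured libraries and from 11.66 to 13.95 M in Sort_Fib. Among replicate pairs, the 3 pairs with 3D-3D replicate 3 differed most, their chi-square divided by the degrees of freedom being 32.62 to 39.31, against 2.8 to 25.58 for the 27 other pairs. Calls of enzymes that changed when this library was left out are given with and without it. Family shares and correlations are given only with it. Fibroblast markers (8 of 8 detected in every group) summed to 16757 to 19720 CPM (counts scaled to a common library size with TMM) in 2D-2D, 10446 to 12143 in 2D-3D, 7947 to 10052 in 3D-2D, 7307 to 9068 in 3D-3D and 9166 to 9596 in Sort_Fib. The 11 macrophage markers summed to 7139 to 9374 CPM in 2D-2D, 17365 to 21676 in 2D-3D, 11433 to 12670 in 3D-2D, 10369 to 13281 in 3D-3D and 5152 to 5518 in Sort_Fib. The 8 smooth muscle and pericyte markers, which include Acta2, summed to 14408 to 16442 CPM in 2D-2D and 10952 to 12114 in 3D-2D, but to 687 to 1043 in 2D-3D, 651 to 1134 in 3D-3D and 328 to 346 in Sort_Fib. Acta2 made up most of these sums in the cultures (14290 ± 803 CPM in 2D-2D and 549 ± 208 in 3D-3D), and within the list 2 markers were higher and 4 lower in 3D-3D minus 2D-2D, 4 and 4 in 2D-2D minus Sort_Fib, and 3 and 5 in 2D-3D minus Sort_Fib. Of the 8 fibroblast markers, 3 were higher and 5 lower in 3D-3D minus 2D-2D. In Sort_Fib the depleted types were still detected: Pecam1, which encodes CD31, stood at 395 ± 16.9 CPM, Ptprc (CD45) at 395 ± 17.6 and Epcam at 16.2 ± 1.63 (SD, n = 4). Of the 11 macrophage markers, 10 were higher and 0 lower in 3D-3D minus 2D-2D and in 2D-3D minus 2D-2D. Of all genes, 38.6% and 36.5% were higher there. In 3D-2D minus 2D-2D, 10 were higher and 1 lower, beside 9.74% and 10.6% of all genes. Marker levels therefore differed between the groups, and in the fibroblast and smooth muscle lists not all in 1 direction. The part of the markers in the results was not tested. In bulk RNA, fewer cells of a type and less RNA per cell cannot be told apart.

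The enzymes fell into different patterns across the cultures. Loxl2, Loxl3, Loxl4 and Plod3 stood highest in the cultures that ended in 2D and lower in both that ended in the gel. Plod2 went the other way and was higher in each gel-ended culture than in 3D-2D. With TMM scaling and all 16 cultured libraries in the fit, Plod1 was called in no pairwise comparison between cultures, and P4ha1 in that of 3D-2D and 3D-3D; other settings that called them, and the interaction of P4ha1, are given with those comparisons. Lox was lowest in 3D-2D, and P4ha2 was highest in 2D-2D. Against the uncultured cells, P4ha2 differed most, with 187 CPM in 2D-2D and 10.3 in Sort_Fib.

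**Figure D1:**
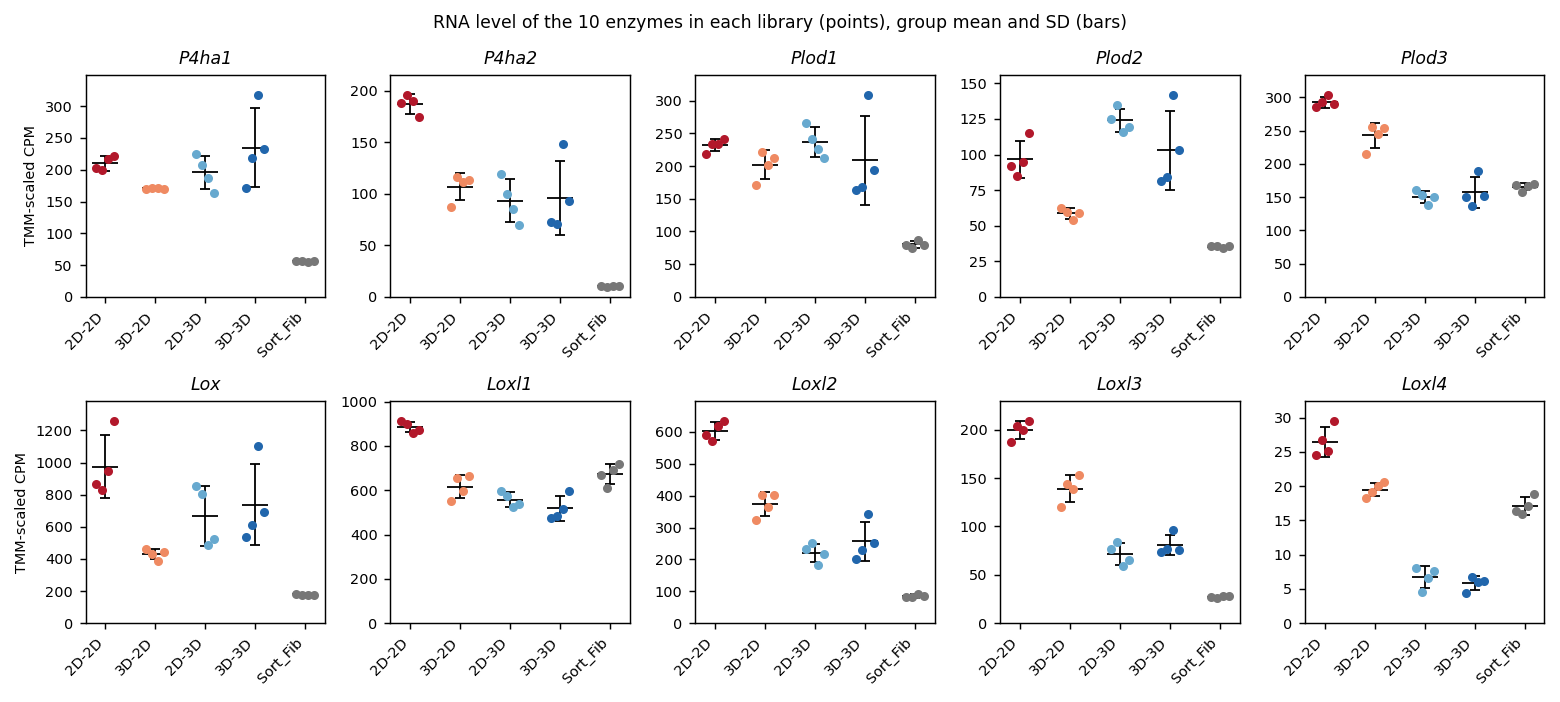
RNA level of each enzyme gene in TMM-scaled CPM (vertical axis from 0) in the 5 groups (horizontal axis); points are libraries, bars the mean and SD of 4 libraries. Loxl4 sits between 18.3 and 29.5 CPM in the cultures that ended in 2D and between 4.44 and 8.09 in those that ended in 3D, and P4ha2 sits between 9.82 and 10.8 CPM in Sort_Fib.

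Levels of different genes were compared per kilobase of exon. Summed over the 5 lysyl oxidases, the level was 634 ± 43.4 CPM per kb in 2D-2D, 367 ± 56.2 in 2D-3D, 381 ± 25.8 in 3D-2D, 378 ± 71.6 in 3D-3D and 267 ± 14.8 in Sort_Fib (SD, n = 4). Loxl1, an oxidase known for elastic fibres, made up 76.3% ± 1.04 of this total in Sort_Fib and 42.3% to 49% in the cultures. Lox, the founding member of the family, rose from 14% ± 0.831 in Sort_Fib to between 23.7% (3D-2D) and 40.1% (3D-3D). Loxl2, which is known for collagen IV of basement membranes, held 5.91% ± 0.308 in Sort_Fib, 17.6% and 18.1% in 2D-2D and 3D-2D, and 11.2% and 12.5% in 2D-3D and 3D-3D. These values describe the makeup of the family, and the share of one member depends on the level of the others.

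Among the lysyl hydroxylases, Plod3 made up 66.6% ± 0.72 of the summed level in Sort_Fib. It held 55.4% ± 1.68 in 2D-2D and 56.9% ± 0.65 in 3D-2D, but 36.5% ± 1.18 in 2D-3D and 41.6% ± 3.7 in 3D-3D. Whether Plod3 or Plod1 led in 3D-3D depended on the gene length used. Plod1 held 36% there by all exons, and by the longest transcript Plod1 held 39.7% and Plod3 38.3%. Plod2, the hydroxylase of the collagen telopeptides and thereby of hydroxylysine-derived crosslinks, held 25.2% ± 1.17 in 2D-3D and 22.4% ± 1.18 in 3D-3D. Its share was 15.3% ± 1.69 in 2D-2D, 11.6% ± 1.41 in 3D-2D and 11.9% ± 0.48 in Sort_Fib. The libraries of the gel-ended cultures did not overlap with the others in this share.

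P4ha2 held 10.8% ± 0.467 of the summed level of both prolyl 4-hydroxylase alpha chains in Sort_Fib and 37% ± 2.33 in 2D-2D, with 20.9% to 29.1% in the other cultures. This split depends on the gene length used, since the exons of P4ha2 cover 6239 bases in all and its longest transcript has 3060. With the longest transcript, P4ha2 held 19.6% in Sort_Fib and 54.1% in 2D-2D. The order of the groups was the same with both lengths.

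**Figure D2:**
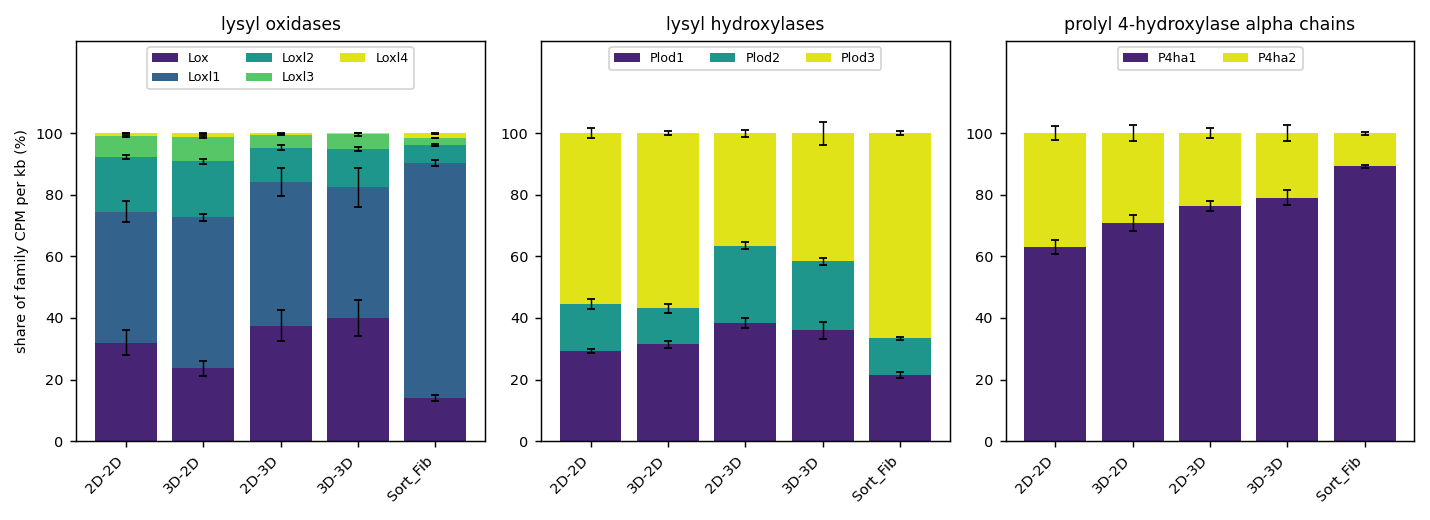
Share of each gene in the summed CPM per kb of its family (vertical axis, percent) in the 5 groups (horizontal axis); stacked bars are means of 4 libraries and error bars the SD. Loxl1 takes 76.3% of the lysyl oxidases in Sort_Fib, and Plod2 takes 25.2% and 22.4% of the lysyl hydroxylases in 2D-3D and 3D-3D.

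Among the lysyl oxidases, Loxl2 (chr14:69609068-69695834, plus strand, GRCm38.p6, as are all coordinates here) was measured at 590, 571, 618 and 634 CPM in the 4 libraries of 2D-2D. The libraries of 3D-3D stood at 201, 230, 344 and 253 CPM, all below 2D-2D. In 2D-3D they stood at 234, 251, 184 and 216 CPM, and in 3D-2D at 323, 403, 365 and 403. The levels of 3D-2D lay between those of 2D-2D and 2D-3D without overlap, while replicate 3 of 3D-3D reached into 3D-2D. Sort_Fib was lowest, at 81.7 to 92 CPM. The counts of Loxl2 are not whole in any of the 20 libraries, which holds for no other member.

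Loxl3 (chr6:83034173-83052562, plus strand), an oxidase that the mouse palate and spine need to form, was measured at 187, 204, 200 and 209 CPM in 2D-2D and at 120, 144, 139 and 153 in 3D-2D. In 2D-3D it stood at 76.9, 84.4, 59.3 and 65.8 CPM, and in 3D-3D at 74, 77.1, 96.2 and 75.2. Both groups that ended in 2D were above both that ended in the gel in all libraries, and Sort_Fib was lowest, at 26.1 to 27.6 CPM. The gene overlaps Htra2 on the opposite strand over 1297 bases, and reads from both may not be told apart there, since the sources used here do not say whether counting used strand.

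Loxl4 (chr19:42593982-42612813, minus strand) was the least abundant member in every culture, but not in Sort_Fib. Its libraries stood at 24.6, 26.7, 25.2 and 29.5 CPM in 2D-2D and at 18.3, 19.1, 20 and 20.6 in 3D-2D. In 2D-3D they stood at 8.09, 4.52, 6.63 and 7.67 CPM and in 3D-3D at 4.44, 6.75, 5.95 and 6.17, which rests on 95 to 170 counts a library. Sort_Fib lay between these, at 16.4, 16, 17.1 and 18.9 CPM, so that Loxl4 was above the sorted cells in 2D-2D and below them in both gel-ended cultures in every library.

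Lox was measured at 865, 828, 946 and 1258 CPM in 2D-2D, and at 462, 429, 385 and 445 in 3D-2D, which is lower in every library. In 2D-3D its libraries stood at 853, 803, 486 and 524 CPM, and in 3D-3D at 539, 613, 1101 and 695. Both gel-ended groups were spread widely, overlapped 2D-2D and did not overlap 3D-2D. Sort_Fib was narrow, at 176 to 183 CPM. Loxl1 (chr9:58287738-58313186, minus strand) ranged over 860 to 912 CPM in 2D-2D, 552 to 662 in 3D-2D, 522 to 596 in 2D-3D, 476 to 597 in 3D-3D and 611 to 720 in Sort_Fib. Below 2D-2D, each of these groups overlapped the next in order of the mean.

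Plod2 (chr9:92542223-92608428, plus strand) was measured at 125, 135, 116 and 119 CPM in 2D-3D and at 81.4, 84, 142 and 103 in 3D-3D. In 3D-2D it stood at 62.3, 59.9, 53.7 and 58.7 CPM, below both gel-ended groups in every library. The libraries of 2D-2D, at 91.8, 84.7, 94.9 and 115 CPM, lay below those of 2D-3D and overlapped those of 3D-3D. Sort_Fib was lowest at 34.5 to 35.7 CPM.

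Plod3 (chr5:136987019-136996648, plus strand), which besides lysine hydroxylation adds the sugars of hydroxylysine, was measured at 285, 293, 304 and 290 CPM in 2D-2D and 215, 256, 245 and 254 in 3D-2D. In 2D-3D it stood at 160, 153, 138 and 150 CPM, in 3D-3D at 150, 136, 189 and 152, and in Sort_Fib at 169, 157, 167 and 170. The libraries of 2D-3D, 3D-3D and Sort_Fib overlapped each other and lay below those that ended in 2D. Plod3 overlaps Znhit1 on the opposite strand over 1003 bases, with the same limit on its counts as for Loxl3. Plod1 (chr4:147909753-147936767, minus strand), which hydroxylates lysines of the helix, ranged over 219 to 241 CPM in 2D-2D, 171 to 222 in 3D-2D, 213 to 266 in 2D-3D, 164 to 309 in 3D-3D and 75.1 to 87.1 in Sort_Fib.

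P4ha1 (chr10:59323296-59373304, plus strand), the main catalytic alpha chain in most cells, was measured at 202, 199, 217 and 222 CPM in 2D-2D and at 225, 208, 187 and 164 in 2D-3D. In 3D-2D it stood at 170, 171, 172 and 170 CPM, and in 3D-3D at 171, 218, 318 and 233. All cultures were above Sort_Fib, which stood at 55.2 to 56.7 CPM. P4ha2 (chr11:54100095-54131665, plus strand), the second catalytic alpha chain, was measured at 188, 196, 190 and 174 CPM in 2D-2D, above every library of the other groups. It stood at 87.3, 116, 111 and 113 CPM in 3D-2D, at 119, 100, 85.2 and 69.3 in 2D-3D, and at 72.7, 70.3, 148 and 93.2 in 3D-3D. These 3 groups overlapped, and Sort_Fib was far lower, at 10.8, 9.82, 10.5 and 10.1 CPM, which rests on 129 to 155 counts a library.

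P4ha1, P4ha2, Plod2, Lox and Loxl2 are known targets of the hypoxia-inducible factors in other cells. The core of the response element these factors bind was looked for in RefSeq (GRCm38.p6) promoter windows of 5 members: Loxl4, P4ha1, P4ha2, Plod1 and Plod3. No window of Lox or of the other members is given here. The windows of 3 are shown, both alpha chains and Loxl4, whose levels moved differently; each runs 5′ to 3′ on the gene's strand, from 250 bases before to 50 after the RefSeq start, and capitals mark ACGTG or GCGTG read on either strand (CACGT or CACGC on the printed one).
P4ha1, chr10:59323046-59323345, plus strand: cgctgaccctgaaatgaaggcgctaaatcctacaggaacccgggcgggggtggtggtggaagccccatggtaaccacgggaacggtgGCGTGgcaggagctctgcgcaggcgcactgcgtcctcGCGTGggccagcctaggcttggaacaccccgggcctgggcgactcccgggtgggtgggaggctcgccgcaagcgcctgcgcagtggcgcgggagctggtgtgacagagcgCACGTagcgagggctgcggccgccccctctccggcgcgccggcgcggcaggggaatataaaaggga
P4ha2, chr11:54100674-54100973, plus strand: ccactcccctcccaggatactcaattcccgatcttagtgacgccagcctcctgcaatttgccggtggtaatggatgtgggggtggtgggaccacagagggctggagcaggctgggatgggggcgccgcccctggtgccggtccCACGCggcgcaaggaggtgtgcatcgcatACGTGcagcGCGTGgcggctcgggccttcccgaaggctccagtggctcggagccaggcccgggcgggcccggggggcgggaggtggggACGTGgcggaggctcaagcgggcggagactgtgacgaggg
Loxl4, chr19:42612757-42613056, minus strand: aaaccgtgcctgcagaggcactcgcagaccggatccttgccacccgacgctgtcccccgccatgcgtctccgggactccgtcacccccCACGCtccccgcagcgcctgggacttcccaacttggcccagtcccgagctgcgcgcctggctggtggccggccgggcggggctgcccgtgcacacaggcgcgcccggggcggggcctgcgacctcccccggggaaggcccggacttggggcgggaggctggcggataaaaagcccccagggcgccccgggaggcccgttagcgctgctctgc
The P4ha1 window held 3 matches, that of P4ha2 4 and that of Loxl4 1, and the windows of Plod1 and Plod3, not printed, held 2 and 4. All 5 held at least 1 match, as did 43.8% of 32851 windows of 300 bases. A match is a description of the letters and not a bound site.

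Cells kept in the gel throughout were set against cells kept in 2D throughout, as the comparison of the settings themselves. In 3D-3D minus 2D-2D, 6 of the 10 enzymes fell and 0 rose, while 73.5% of 13704 genes tested were called, 38.6% higher and 34.9% lower (edgeR's quasi-likelihood test, adjusted p below 0.05). Loxl4 fell most, by 2.19 ± 0.15 on the log2 scale (SE, adjusted p = 5.18e-11), from a mean of 26.5 to 5.83 CPM. Loxl3 fell by 1.32 ± 0.10 (adjusted p = 4.54e-10) and Loxl2 by 1.24 ± 0.12 (adjusted p = 1.81e-08). P4ha2 fell by 0.98 ± 0.18 (adjusted p = 6.32e-05), Plod3 by 0.91 ± 0.09 (adjusted p = 6.13e-09) and Loxl1 by 0.79 ± 0.08 (adjusted p = 2.23e-08), each from 2D-2D libraries that did not overlap with 3D-3D. Lox at -0.42 ± 0.19 (adjusted p = 0.0592), Plod1 at -0.16 ± 0.14, P4ha1 at 0.15 ± 0.13 and Plod2 at 0.07 ± 0.13 did not pass the test. The median change of the 10 was -0.85, against 0.05 over all genes.

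Replicate 3 of 3D-3D set part of this count. Without it 8 enzymes were called lower, with Lox at -0.67 ± 0.17 (adjusted p = 0.00148) and Plod1 at -0.41 (adjusted p = 0.000491) added, and P4ha2 at -1.25. Lox was also called without 2D-2D replicate 2 (-0.49, adjusted p = 0.0416), with limma-voom (-0.45) and with no filter on low counts (-0.43), and P4ha1 was called higher without 3D-3D replicate 1 (0.27, adjusted p = 0.0341). Of the 10 enzymes 8 were highest in replicate 3 among the 3D-3D libraries, as were 22 of 22 hypoxia-inducible genes and 31.9% of 12933 genes with a mean of at least 1 CPM there. Egln3, an oxygen-sensing prolyl hydroxylase and hypoxia target, stood at 514 CPM in this library and at 164, 144 and 176 in the others; its part in the result was not tested. Scaling by library size alone moved the median of all genes by 0.32 in this comparison. It left the 6 enzymes lower and added Plod2 (0.38) and P4ha1 (0.46) as higher, while over all genes the calls went from 5294 higher and 4784 lower to 7289 and 2996.

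Moving cells from 2D into the gel for the last 2 days was compared with leaving them in 2D. In 2D-3D minus 2D-2D, 7 enzymes fell and 1 rose, with 71.2% of all genes called, 36.5% higher and 34.7% lower. The comparison shares the 2D-2D libraries with the one before. Loxl4 fell by 1.98 ± 0.15 (adjusted p = 2.25e-10), Loxl3 by 1.48 ± 0.10 (adjusted p = 9.3e-11) and Loxl2 by 1.45 ± 0.13 (adjusted p = 2.1e-09). P4ha2 fell by 1.00 ± 0.18 (adjusted p = 4.84e-05), Plod3 by 0.96 ± 0.09 (adjusted p = 2.96e-09) and Loxl1 by 0.67 ± 0.08 (adjusted p = 2.31e-07). Plod2 rose by 0.36 ± 0.13 (adjusted p = 0.02), from a mean of 96.7 to 124 CPM. Lox fell by 0.55 ± 0.19 (adjusted p = 0.0164) with overlapping libraries.

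The calls of Lox and Plod2 were the least firm of these. Lox was not called without 2D-2D replicate 4 (-0.40, adjusted p = 0.0815), 2D-3D replicate 3 (-0.43, adjusted p = 0.0671) or 2D-3D replicate 4 (-0.45, adjusted p = 0.0599), or with library size alone (-0.27). Plod2 was not called without 2D-2D replicate 2 (0.29, adjusted p = 0.0737) or 2D-3D replicate 2 (0.31, adjusted p = 0.0608). Plod1 (0.03 ± 0.14) and P4ha1 (-0.10 ± 0.13) did not pass, although Plod1 was called higher with library size alone (0.31), where the median of all genes moved by 0.28 and the calls over all genes from 5005 higher and 4758 lower to 6708 and 3224; with that scaling 2 enzymes rose and 6 fell. Macrophage markers were at least 17365 CPM in 2D-3D and at most 9374 in 2D-2D; their part in the result was not tested.

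The reverse move, from the gel to 2D, was compared with staying in the gel. In 3D-2D minus 3D-3D, 5 enzymes rose and 3 fell, with 70.5% of all genes called, 32.8% higher and 37.7% lower. Loxl4 rose by 1.74 ± 0.15 (adjusted p = 2.54e-09), from 5.83 to 19.5 CPM, Loxl3 by 0.79 ± 0.10 (adjusted p = 1.07e-06) and Plod3 by 0.63 ± 0.08 (adjusted p = 1.5e-06). Loxl2 rose by 0.54 ± 0.12 (adjusted p = 0.000599) and Loxl1 by 0.25 ± 0.08 (adjusted p = 0.00827), both with overlapping libraries. Plod2 fell by 0.80 ± 0.13 (adjusted p = 2.01e-05), Lox by 0.77 ± 0.20 (adjusted p = 0.00153) and P4ha1, with overlapping libraries, by 0.46 ± 0.13 (adjusted p = 0.00337). Without 3D-3D replicate 3, these changes were -0.61, -0.52 and -0.28 and were still called, and P4ha2 was called higher as well (0.43, adjusted p = 0.00868, against 0.15 ± 0.18 with it). Loxl1 was not called with library size alone (0.02), which moved the median of all genes by -0.23 and the calls over all genes from 4494 higher and 5168 lower to 3079 and 6774.

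Whether the second culture acted alike after both first cultures was tested as an interaction, the 3D-3D minus 3D-2D change less the 2D-3D minus 2D-2D change. It was called for 6 of 10 enzymes, all positive, against 19.4% of all genes called, 10.3% as positive and 9.10% as negative. For Loxl2 the gel-ended culture was lower by 1.45 on the log2 scale after 2D and by 0.54 after 3D, an interaction of 0.90 ± 0.17 (adjusted p = 0.000772). For Loxl3 (0.69 ± 0.15, adjusted p = 0.00168) and Loxl1 (0.42 ± 0.11, adjusted p = 0.0112) the fall was likewise smaller after 3D. For P4ha2 the interaction was 0.85 ± 0.25 (adjusted p = 0.022), where P4ha2 fell by 1.00 after 2D and stood at -0.15 after 3D. Lox changed sign, with -0.55 after 2D and 0.77 after 3D, an interaction of 1.32 ± 0.28 (adjusted p = 0.00163). P4ha1 had 0.56 ± 0.18 (adjusted p = 0.0338).

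For Loxl4, which moved most in both, the interaction was 0.23 ± 0.21 (adjusted p = 0.499), with an interval of -0.17 to 0.64. Plod3 had 0.33 ± 0.12 (adjusted p = 0.0582), Plod2 0.45 ± 0.19 (adjusted p = 0.102) and Plod1 0.02 ± 0.20 (adjusted p = 0.967). The call of P4ha1 was lost in 10 of the fits that left out 1 of the 16 cultured libraries, among them that without 3D-3D replicate 3 (0.38, adjusted p = 0.0565) and that without 2D-3D replicate 4 (0.47, adjusted p = 0.0738). That of P4ha2 was lost without 3D-2D replicate 1 (0.74, adjusted p = 0.064). Without 3D-3D replicate 3, the interaction was 1.07 for Lox, 0.74 for Loxl2 and 0.60 for Loxl3. It was 0.57 for P4ha2 (adjusted p = 0.0327) and 0.42 for Loxl1, and these 5 were still called. Plod2 was called without 3D-3D replicate 1 (0.54, adjusted p = 0.0376) and Plod3 without 3D-3D replicate 2 (0.39, adjusted p = 0.0237), as it was with DESeq2 (adjusted p = 0.0442) and with all 20 libraries in the fit (adjusted p = 0.0434).

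**Figure D3:**
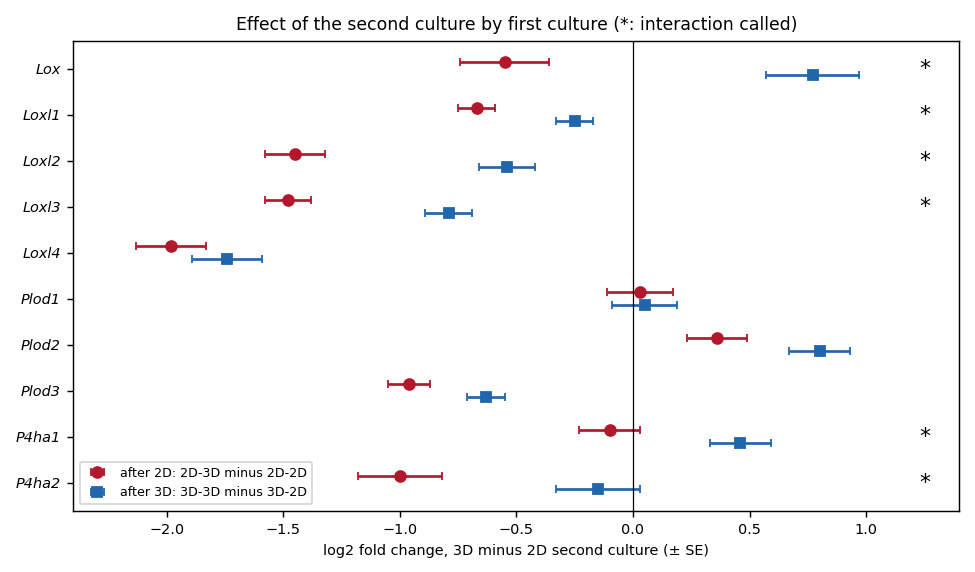
Log2 fold change ± SE of each enzyme between a second culture in 3D and one in 2D (horizontal axis), after a first culture in 2D (circles) or in 3D (squares), from 4 libraries a group; asterisks mark a called interaction. Loxl4 is low in both, at -1.98 and -1.74, and Lox lies on either side of 0, at -0.55 and 0.77.

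Among cells that ended in 2D, those that had begun in the gel were compared with those that had begun in 2D. In 3D-2D minus 2D-2D, 8 enzymes fell and 0 rose, with 20.4% of all genes called, 9.74% higher and 10.6% lower. Lox fell most, by 1.19 ± 0.20 (adjusted p = 0.000125), from 974 to 430 CPM. P4ha2 fell by 0.82 ± 0.18 (adjusted p = 0.00209), Plod2 by 0.73 ± 0.13 (adjusted p = 0.000338) and Loxl2 by 0.70 ± 0.12 (adjusted p = 0.000235). Loxl1 (-0.54 ± 0.08, adjusted p = 3.82e-05), Loxl3 (-0.54 ± 0.10, adjusted p = 0.000563), Loxl4 (-0.45 ± 0.14, adjusted p = 0.024) and Plod3 (-0.28 ± 0.08, adjusted p = 0.0203) were also lower. P4ha1, at -0.31 ± 0.13 (adjusted p = 0.0982), and Plod1, at -0.21 ± 0.14 (adjusted p = 0.333), did not pass. The median of the 10 was -0.54, against -0.01 over all genes.

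The calls of Loxl4 and Plod3 in that comparison hung on single libraries. Loxl4 was lost without 2D-2D replicate 2 or 4 or 3D-2D replicate 1 or 2 (adjusted p = 0.0515 to 0.091), Plod3 without 2D-2D replicate 3 (adjusted p = 0.056) or 3D-2D replicate 1 (adjusted p = 0.163), and both with library size alone (-0.36 and -0.19), where 1887 of all genes were higher and 865 lower, in place of 1335 and 1458. P4ha1 passed when only these groups were fitted (-0.28, adjusted p = 0.00394). Fibroblast markers also differed between these groups, with 16757 to 19720 CPM in 2D-2D and 7947 to 10052 in 3D-2D, and 5 of the 8 fell while 2 rose. Most of the difference in the sum came from Col1a1, which fell from 9752 to 4550 CPM (-1.11 ± 0.12), and Col1a2, which fell from 3880 to 1669 CPM (-1.23 ± 0.09). Pdgfra, another fibroblast marker, stood at 179 ± 18 CPM in 2D-2D and 178 ± 8.88 in 3D-2D. The part of these markers in the result was not tested.

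Among cells that ended in the gel, 0 of 10 enzymes were called between 2D-3D and 3D-3D, against 27.7% of all genes, 12.7% higher and 15.0% lower. DESeq2 and limma-voom also called 0, and by edgeR 1, Plod2, had an unadjusted p below 0.05. The estimates ranged from -0.25 ± 0.13 (P4ha1) to 0.28 ± 0.13 (Plod2), with intervals of -0.50 to 0.00 and 0.03 to 0.54. The interval of Lox, -0.51 to 0.25, and that of P4ha2, -0.38 to 0.33, were wider, and differences within them were not detectable here. Loxl1 (-0.04 to 0.27) and Plod3 (-0.21 to 0.12) were measured most closely. Without 3D-3D replicate 3, Plod1 (0.44, adjusted p = 0.00088) and Plod2 (0.47, adjusted p = 0.00111) were called higher in 2D-3D, and without 3D-3D replicate 1 P4ha1 was called lower (-0.37, adjusted p = 0.0171). In the same comparison Col1a1 was higher in 2D-3D by 1.13 ± 0.12 and Vegfa, a hypoxia-inducible growth factor gene, lower by 1.09 ± 0.13.

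The groups that had seen both settings in opposite order were compared directly. In 2D-3D minus 3D-2D, 2 enzymes rose and 4 fell, with 69.1% of all genes called, 36.0% higher and 33.2% lower. Plod2 rose by 1.09 ± 0.13 (adjusted p = 4.04e-07), from 58.6 to 124 CPM, and Lox by 0.64 ± 0.20 (adjusted p = 0.00627). Loxl4 fell by 1.52 ± 0.15 (adjusted p = 1.41e-08), Loxl3 by 0.95 ± 0.10 (adjusted p = 8.57e-08), Loxl2 by 0.74 ± 0.12 (adjusted p = 2.15e-05) and Plod3 by 0.68 ± 0.08 (adjusted p = 5.55e-07). With library size alone, where 6189 of all genes were higher and 3421 lower in place of 4933 and 4543, Plod1 (0.43) and P4ha1 (0.40) were called higher too, as they were when only these groups were fitted (0.24 and 0.21), and without 3D-2D replicate 1 Loxl1 was called lower (-0.25, adjusted p = 0.0121).

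Each culture was set against the uncultured cells, which are shared by these 4 comparisons. The cultures were grown from unsorted cells and Sort_Fib was depleted with beads, so culture and depletion cannot be told apart here. In these comparisons, rose and fell mean higher and lower than in Sort_Fib. In 2D-2D minus Sort_Fib, 10 of 10 enzymes rose, with 84.6% of 14715 genes called, 38.5% higher and 46.1% lower. P4ha2 rose most, by 4.18 ± 0.20 on the log2 scale or 18.2-fold (adjusted p = 1.81e-15). Loxl3 rose by 2.88 ± 0.11 (adjusted p = 8.64e-18), Loxl2 by 2.82 ± 0.13 (adjusted p = 3.64e-16) and Lox by 2.45 ± 0.19 (adjusted p = 1.81e-11). P4ha1 (1.91 ± 0.13), Plod1 (1.53 ± 0.14) and Plod2 (1.45 ± 0.13) rose by less, as did Plod3 (0.82 ± 0.08), Loxl4 (0.63 ± 0.13) and Loxl1 (0.40 ± 0.08). The call of Loxl1 was lost with library size alone (0.07, adjusted p = 0.388), where the median of all genes moved by -0.32 and 4442 of them were higher and 8026 lower, in place of 5669 and 6787.

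In 3D-2D minus Sort_Fib, 8 enzymes rose and 0 fell, with 83.9% of all genes called, 38.1% higher and 45.8% lower. P4ha2 rose by 3.37 ± 0.20 (adjusted p = 9.71e-14), Loxl3 by 2.36 ± 0.11 (adjusted p = 3.56e-16), Loxl2 by 2.13 ± 0.12 (adjusted p = 6.17e-14) and Plod2 by 0.73 ± 0.13 (adjusted p = 1.39e-05). Loxl1 (-0.13 ± 0.08) and Loxl4 (0.19 ± 0.13) did not pass, with overlapping libraries. Loxl1 was called lower with library size alone (-0.38, adjusted p = 7.41e-05), and Loxl4 higher when only these groups were fitted (0.23, adjusted p = 0.0192).

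In 2D-3D minus Sort_Fib, 7 enzymes rose and 2 fell, with 78.1% of all genes called, 38.2% higher and 39.9% lower. In 3D-3D minus Sort_Fib, 7 rose and 2 fell as well, with 77.8% called, 38.5% higher and 39.3% lower. P4ha2 rose by 3.18 ± 0.20 in 2D-3D and 3.22 ± 0.20 in 3D-3D, and P4ha1 by 1.81 ± 0.12 and 2.07 ± 0.13. Loxl4 fell by 1.34 ± 0.14 in 2D-3D (adjusted p = 5.13e-09) and by 1.55 ± 0.14 in 3D-3D (adjusted p = 5.36e-10). Loxl1 fell by 0.27 ± 0.08 (adjusted p = 0.00303) and 0.38 ± 0.08 (adjusted p = 0.000129). Plod3 did not pass, at -0.14 ± 0.08 (adjusted p = 0.119) and -0.08 ± 0.08 (adjusted p = 0.366). It was called lower in 2D-3D with library size alone (-0.19, adjusted p = 0.0198), with DESeq2 (-0.18, adjusted p = 0.0495) and when only these groups were fitted (-0.16, adjusted p = 0.0337), and in 3D-3D without replicate 3 (-0.18, adjusted p = 0.0229).

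**Figure D4:**
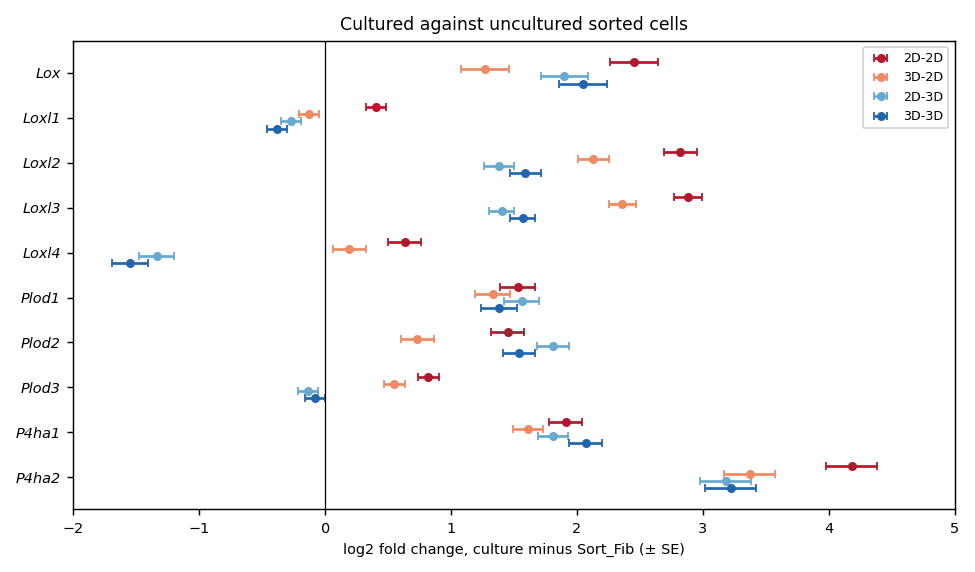
Log2 fold change ± SE of each enzyme in the 4 cultures against Sort_Fib (horizontal axis), from 4 libraries a group. P4ha2 lies between 3.18 and 4.18 in all cultures, and Loxl4 lies below 0 only in 2D-3D and 3D-3D.

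Beside these comparisons, endothelial markers (10 of 10 detected) summed to 3252 to 3487 CPM in Sort_Fib and to at most 259 in any cultured library, and the 11 epithelial markers to 2118 to 2477 against at most 675. Of the epithelial list, 11 were lower in 2D-2D and in 2D-3D than in Sort_Fib, but 2 were higher and 9 lower in 3D-2D, and 4 higher and 6 lower in 3D-3D, where Krt8 stood at 107 ± 34.8 CPM against 19 ± 0.725 in Sort_Fib. The 6 lymphocyte markers summed to 474 to 534 CPM in Sort_Fib and at most 65.7 in culture, with Cd3e, Cd3g and Ms4a1 at 0 in 2D-2D, Cd3e and Nkg7 at 0 in 2D-3D and Cd3e at 0 in 3D-2D. Neutrophil markers (4) summed to 547 to 597 CPM against at most 76.8, and mesothelial markers (4) to 45.1 to 50.9 against at most 38.2, with 2 of the mesothelial 4 higher and 2 lower in 3D-3D. Their part in the differences from Sort_Fib was not tested.

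The genes that prepare collagen beside these enzymes were followed as a list of 21 chaperones, further hydroxylases and propeptide proteases, of which 19 were tested among the cultures. In 3D-3D minus 2D-2D, 3 rose and 14 fell, with a median of -0.54 against 0.05 over all genes. Of all genes, 38.6% were called higher and 34.9% lower. With library size alone 5 of the list rose and 10 fell. Adamts2, a procollagen N-proteinase, fell by 2.09 ± 0.09, the lysyl hydroxylase chaperone gene Fkbp10 by 1.38 ± 0.07 and Pcolce, an enhancer of the C-proteinase, by 1.32 ± 0.08. Adamts3, another procollagen N-proteinase, rose by 4.53 ± 0.23, from 1.83 to 42.7 CPM, and Fkbp14 by 0.62 ± 0.11. In 2D-3D minus 2D-2D, 4 rose and 14 fell, beside 36.5% and 34.7% of all genes. Among them were Serpinh1, the collagen chaperone HSP47, at -1.17 ± 0.08 and Adamts3 at 3.86 ± 0.23.

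In 3D-2D minus 3D-3D, 9 genes of this list rose and 6 fell, beside 32.8% and 37.7% of all genes. P4ha3, the third alpha chain, fell by 0.99 ± 0.13 and Adamts3 by 4.68 ± 0.23, while Serpinh1 rose by 0.93 ± 0.08. In 3D-2D minus 2D-2D, 1 rose and 12 fell, beside 9.74% and 10.6% of all genes, with a median of -0.40 against -0.01. Between 2D-3D and 3D-3D, 2 were higher and 3 lower, beside 12.7% and 15.0% of all genes, and Adamts2 was higher in 2D-3D by 1.23 ± 0.09. Of the list 11 had a positive interaction and 1 a negative one, beside 10.3% and 9.10% of all genes. Against Sort_Fib, 13 of 21 rose and 5 fell in 2D-2D, 12 and 7 in 2D-3D, 12 and 9 in 3D-2D, and 13 and 7 in 3D-3D, with 12 and 8 in 2D-2D by library size alone. Of all genes, 38.5% were called higher and 46.1% lower in 2D-2D, and 38.2% and 39.9% in 2D-3D. These shares were 38.1% and 45.8% in 3D-2D, and 38.5% and 39.3% in 3D-3D. Pcolce2, a relative of the procollagen C-proteinase enhancer, fell by 6.18 ± 0.11 in 2D-2D, from 581 to 7.98 CPM. Colgalt2, a collagen galactosyltransferase, stood at 36.9 CPM in Sort_Fib and at no more than a mean of 0.247 in the cultures. P4hb, which encodes the beta subunit shared by the collagen prolyl 4-hydroxylases, rose by 1.81 ± 0.10 in 2D-2D.

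The 13 collagen and elastin genes that are substrates of the enzymes divided. In 3D-3D minus 2D-2D, 5 rose and 8 fell, with a median of -1.46 against 0.05 over all genes. Of all genes, 38.6% were called higher and 34.9% lower. Eln, which encodes elastin, rose by 3.79 ± 0.21, from 11.3 to 158 CPM, and Col3a1 by 1.08 ± 0.13, while the basement membrane chain Col4a2 fell by 2.65 ± 0.11 and Col11a1 by 5.44 ± 0.21. In 2D-3D minus 2D-2D, 5 rose and 7 fell, beside 36.5% and 34.7% of all genes, with Eln at 3.37 ± 0.20. In 3D-2D minus 2D-2D, 0 rose and 11 fell, beside 9.74% and 10.6% of all genes, with Col1a2 at -1.23 ± 0.09. Between 2D-3D and 3D-3D, 7 were higher in 2D-3D and 3 lower, with Col1a2 higher by 1.00 ± 0.09. No enzyme was called in this comparison, and 12.7% of all genes were called higher and 15.0% lower. Eln was lower than in Sort_Fib (861 CPM) in every culture, by 6.25 ± 0.21 in 2D-2D and by 2.44 ± 0.17 in 3D-3D.

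Of 7 matrix partners of the lysyl oxidases, 2 rose and 5 fell in 3D-3D minus 2D-2D, where 73.5% of all genes were called, and their median was -0.76 against 0.05 over all genes. Fbln5, which binds elastin and Loxl1, fell by 3.28 ± 0.13, from 72.3 to 7.52 CPM, and Postn, which aids activation of Lox, rose by 1.36 ± 0.16. In 2D-3D minus 2D-2D, 2 rose and 4 fell, with Postn at 3.04 ± 0.16, beside 71.2% of all genes called, and in 2D-3D minus 3D-3D 4 were higher and 0 lower, beside 27.7%. Their medians were -0.49 and 0.53, against 0.04 and 0.01 over all genes. Of 4 genes of copper and ascorbate supply, 4 rose in 3D-3D and 3 in 2D-3D against 2D-2D, with medians of 0.51 and 0.60 against 0.05 and 0.04 over all genes, while 38.6% and 36.5% of all genes rose. Atp7a, the pump that loads copper onto lysyl oxidases in the secretory pathway, rose by 1.12 ± 0.16 and 1.19 ± 0.16, and the copper importer Slc31a1 by 0.54 ± 0.07 and 0.80 ± 0.07.

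Hypoxia-inducible genes were counted because several of the enzymes belong to that response. In 3D-3D minus 2D-2D, 13 of 22 rose and 4 fell, with a median of 0.81 against 0.05 over all genes. Of all genes, 38.6% were called higher and 34.9% lower there. Without 3D-3D replicate 3, 13 of the list rose and 7 fell, with a median of 0.60, and with library size alone 14 rose and 2 fell. Ddit4, an inhibitor of mTOR signalling, rose by 1.98 ± 0.10, and Adm, the vasoactive peptide adrenomedullin, fell by 2.21 ± 0.24. In 2D-3D minus 2D-2D, 9 rose and 8 fell, with a median of 0.12, or 11 and 4 with library size alone. With TMM scaling, 36.5% of all genes were called higher in that comparison and 34.7% lower. In 3D-2D minus 3D-3D, 2 rose and 14 fell, beside 32.8% and 37.7% of all genes. In 3D-2D minus 2D-2D, 1 rose and 3 fell, beside 9.74% and 10.6% of all genes, or 1 and 1 with library size alone. Between 2D-3D and 3D-3D 7 were lower in 2D-3D, as were 15.0% of all genes. Of the 22, 10 had a positive interaction and 1 a negative one, or 8 and 1 without 3D-3D replicate 3. With all cultured libraries, 10.3% of all genes had a positive interaction and 9.10% a negative one. Oxygen was not measured, and the part of this response in the enzyme levels was not tested.

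Across the 16 cultured libraries the enzymes were compared by Pearson correlation of log2 CPM. This is given as a description, since libraries of a group share their culture, and no grouping of the enzymes was tested. Loxl3 and Plod3 had r = 0.982, and Loxl2 and Loxl3 r = 0.980. Lox had r = 0.79 with P4ha1 and 0.71 with Plod2, and r between 0.06 and 0.47 with the other lysyl oxidases. Plod2 ran against Loxl4, with r = -0.51. Among 9205 genes with a mean of at least 10 CPM, those most like Loxl3 were Nacad (r = 0.987) and Plod3, and those most like Loxl2 were Loxl3 and Triobp (0.970). Those most like Plod3 were Clip2 (r = 0.991) and Ube2o (0.990), and those most like Loxl4 were St3gal2 (0.988) and Phldb1 (0.986). Closest to Lox were Nxph4 (0.900) and Col16a1 (0.890), to Loxl1 Palm (0.973) and Copz2 (0.960), and to Plod2 Bcl6 (0.936) and Cercam (0.923). For P4ha2 they were Gys1 (0.973) and Pde4dip (0.965), for P4ha1 Pcgf5 (0.885) and Npepps (0.883), and for Plod1 Entpd4b (0.912) and Wdr24 (0.872).

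**Figure D5:**
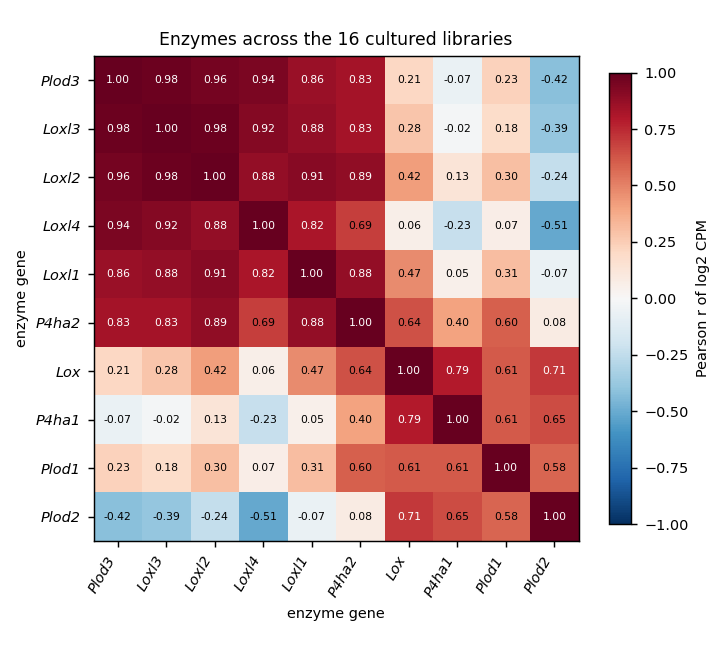
Pearson r of log2 CPM between each pair of enzymes over the 16 cultured libraries (both axes list the genes; colour and number give r). Plod3, Loxl3, Loxl2 and Loxl4 are at 0.88 or above among themselves, and Plod2 is at -0.51 with Loxl4.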

How the data were processed

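RNA was sequenced in 20 libraries, 4 in each of 5 groups, which were taken from the labels. HISAT, Bowtie2 and the build GRCm38.p6 are named, without roles, in the submitters' processing notes, and HISAT as the aligner per the labels' protocols; what counted the reads, and every version, is not given in the sources used here. Expected counts per gene were deposited by the authors; 5.98% of the values are not whole (tolerance 1e-06) and were rounded. Of 67228 genes, 49216 are blank and are not analysed here, as are 5 columns of group means.

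Tests used R 4.3.3 and edgeR 4.0.16: filterByExpr, TMM scaling and quasi-likelihood F tests over all genes, adjusted by Benjamini-Hochberg and called below 0.05, after checks on simulated data. Comparisons between cultures used 1 fit of the 16 cultured libraries (13704 genes, biological coefficient of variation 0.122) and those with Sort_Fib a fit of all 20 (14715 genes, 0.112). Log2 changes carry a standard error derived from edgeR's F statistic, as the log2 change fitted without a prior count divided by the square root of F. Intervals are the estimate ± 1.96 SE and are approximate, and levels are TMM-scaled CPM. Gene lengths are unions of exons in the reference annotation of the same build. Libraries with the same replicate number deviated no more alike than others (mean r of -0.004 over 40 pairs, and 0.001 over 120 pairs with different numbers), so the numbers were not used to pair them. Alternatives were RLE factors, library size alone, other filters, DESeq2 1.42.0, limma-voom (limma 3.58.1), a replicate block, fits of fewer or more groups and of all libraries but 1.

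The members, the gene lists and the tests were chosen with earlier results of these data known. All 10 members were named. From other lists, genes were named among up to 3 higher and 3 lower ones with the largest called change, a group mean of 10 CPM or more and libraries that do not overlap; genes shown with their levels as markers or as hypoxia targets were taken from the lists after their values were seen. The 2 genes most like each member were named by correlation.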

Additional observations from a re-analysis of the deposited data

Results flagged for a closer look

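In 1 of 50 sets of 4 libraries (10 enzymes in 5 groups), 1 library stood apart from the other 3 by Dixon's criterion, which chance does in about 1 in 20 groups. This was Loxl3 in 3D-3D replicate 3, at 96.2 CPM against 74 to 77.1 in the others, a gap of 0.861 of the range.

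The interaction, by which the effect of the second culture differs with the first, was called for 6 enzymes and for 19.4% of all genes (edgeR's quasi-likelihood test, log2 scale). It was 1.32 ± 0.28 for Lox (adjusted p = 0.00163), 0.90 ± 0.17 for Loxl2 (adjusted p = 0.000772) and 0.85 ± 0.25 for P4ha2 (adjusted p = 0.022). It was 0.69 ± 0.15 for Loxl3 (adjusted p = 0.00168), 0.56 ± 0.18 for P4ha1 (adjusted p = 0.0338) and 0.42 ± 0.11 for Loxl1 (adjusted p = 0.0112). The call of P4ha1 was lost in 10 of the fits that left out 1 of the 16 cultured libraries. That of P4ha2 was lost without 3D-2D replicate 1.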

How the results depend on the processing

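No called change of an enzyme turned direction under any alternative run. Among 880 recomputed changes under other settings 22 crossed the threshold, 12 of them with library size alone, and among 960 with 1 library left out 34 did; the values are given beside the results. For 2D-3D minus 3D-3D, the number of enzymes called was 0 with all libraries, 1 without 3D-3D replicate 1 and 2 without 3D-3D replicate 3. With 1 library left out, enzymes called ranged over 6 to 8 for 3D-3D minus 2D-2D, 7 to 8 for 2D-3D minus 2D-2D, 8 to 9 for 3D-2D minus 3D-3D, 6 to 8 for 3D-2D minus 2D-2D, 6 to 7 for 2D-3D minus 3D-2D, 4 to 7 for the interaction, and against Sort_Fib they were 10 for 2D-2D, 9 for 2D-3D, 8 for 3D-2D and 9 to 10 for 3D-3D. The replicate block left 6 enzymes called in 3D-3D minus 2D-2D and changed the call of none of the 10 in any comparison, which says little since the numbers do not pair libraries. Library size alone moved the median of all genes by -0.32 to 0.32, so that changes of about that size depend on the scaling. With the longest transcript as gene length, 27 family shares moved by at least their SD and 23 did not. Loxl4 in the gel-ended cultures and P4ha2 in Sort_Fib have the fewest counts.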
